A study of Mus musculus with 20 samples.

Results

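Non-cycling oligodendrocyte precursor cells (OPCs) were picked out of the cells sorted from the neonatal mouse dentate gyrus (DG) at postnatal day 5 (P5) by their transcripts. The cells were chosen by their counts of 8 genes, and what these genes show is given as description. A cell entered the group when it had at least 1 unique molecular identifier (UMI, 1 captured RNA molecule) of Pdgfra, at least 4 summed over Pdgfra, C1ql1, Lhfpl3 and Matn4, at most 2 UMIs of Gpr17, and 0 UMIs of the cycle genes Mki67, Top2a and Cdk1. This held for 1668 of the 13684 P5 cells that passed the filters, 12.2% (exact binomial 95% interval 11.6 to 12.7), and of 21832 cells over all ages. The study profiled Nestin-EGFP+ cells by single-cell RNA sequencing (scRNA-seq) on the 10x Genomics platform at P5, 12 weeks (12w) and 24 weeks (24w), to follow neural stem cells and their progeny with age. The mice carry EGFP under regulatory elements of Nestin, an intermediate filament gene of neural progenitors and have a C57BL/6 background, and the labels name no treatment. The DG was microdissected and dissociated with papain, and EGFP+ live cells were collected by flow cytometry with gates set on wild-type mice. Every cell described here, comparison cells included, therefore passed an EGFP gate.

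OPCs are glial progenitors that settle throughout the brain, divide in response to platelet-derived growth factor, and receive synaptic input from neurons. When they commit to differentiation, they pass through a brief stage marked by Gpr17, a G protein-coupled receptor, and then switch on myelin genes. Pdgfra encodes the receptor of platelet-derived growth factor, C1ql1 a secreted C1q-like synaptic organizer, Lhfpl3 a tetraspan membrane protein and Matn4 a matrix adaptor protein of the matrilin family.

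The P5 data are 1 library, and its Xist and Y-linked UMIs show that mice of both sexes were pooled. Neither a test nor a replicate error was therefore possible, and the levels below are the pooled UMIs of a group as counts per 1000000 UMIs (CPM). Ratios carry exact 95% intervals in parentheses that cover counting error only, and a gene is called higher or lower at a 2-fold difference, where at least 20 UMIs were counted or would be expected in the smaller pool. CPM is not scaled by length, so levels were not ranked between genes. The 3 libraries held 67543410 (P5), 21972852 (12w) and 11353643 (24w) UMIs. P5 cells shared 98 barcodes with 12w cells and 63 with 24w cells, against 99.3 and 51.9 expected from random draws. The P5 library lists only selected barcodes, the lowest with 1495 UMIs, so free RNA could not be read from empty droplets. Instead, levels in cells with neuronal or vascular markers are given as the background of a gene that those cells should lack.

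Non-cycling OPCs were shallower than the cells they were compared with. They had a median of 2994 UMIs (1495 to 15634) and 1639.5 genes, against 4561 UMIs and 2044 genes in the other 12016 P5 cells. Their pool held 6096695 UMIs, against 60219787 in the other cells. Scrublet called 236 of them (14.1%) doublets, against 7.68% of the other cells. For this reason, every main contrast is also given without doublets and without OPCs that held markers of another class.

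Pdgfra, the gene that every member had to carry, was counted at a median of 3 UMIs per cell (1 to 14). C1ql1 was detected in 1506 of the 1668 cells at a median of 3 UMIs (0 to 17). Matn4 was present in 1334 cells (0 to 13 UMIs) and Lhfpl3 in 1188 (0 to 8 UMIs). The 4 markers were found together in 857 cells, and their sum had a median of 9 UMIs (4 to 32). Pdgfra alone carried 9 cells past the threshold. Pdgfra also marks fibroblasts of the meninges, and 1 of these 9 cells had a fibroblast marker UMI, while all 9 had at least 2 of Olig1, Olig2, Sox10 and Cspg4. Exactly 2 of these genes were also found in 36.0% of the other P5 cells.

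The edges of the rule were not sparsely filled. Just inside it were 116 cells with a marker sum of 4, and just outside it 124 cells with a sum of 3 that met every other condition. Gpr17 was at 0, 1 and 2 UMIs in 849, 539 and 280 OPCs, and 97 further cells had 3. A single UMI of the cycle genes kept 354 cells out, with a median of 3900.5 UMIs, and 332 cells had 2 or more. In 114 cells all conditions held except that Pdgfra was at 0.

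The label was checked with 12 OPC markers that the rule did not use. A median of 6 of them (1 to 12) was detected per cell. Of Olig1, Olig2, Sox10 and Cspg4, 4 of these markers, exactly 3 were present in 752 cells, all 4 in 353 and none in 5. The neuronal and astroglial classes leave out any cell that met the OPC marker conditions, so low counts there are in part built in. Among the 1309 P5 cells with neuronal markers, all 4 were found in 5. Among the 6729 cells with astroglial markers, all 4 were found in 69, exactly 3 in 421 and exactly 2 in 42.7%, against 29.4% of OPCs with exactly 2. The summed level of the 12 markers was 6716 CPM in non-cycling OPCs, 670 CPM in cells with neuronal markers and 623 CPM in cells with vascular markers. It was 3824 CPM in the cells with astroglial markers, where Olig1, Olig2 and Ptprz1 were also found.

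**Figure D1:**
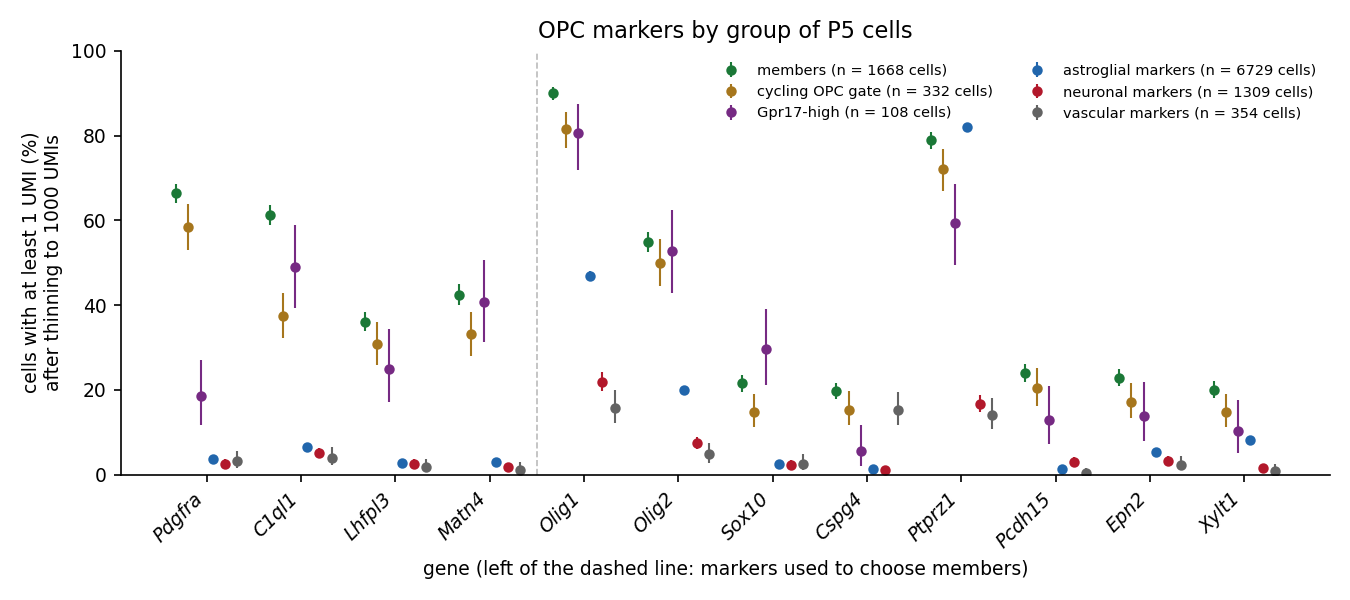
Share of cells with at least 1 UMI of each OPC marker after every cell was thinned to 1000 UMIs (vertical axis, percent), for 6 groups of P5 cells named with their number of cells. Points are shares and bars are exact binomial 95% intervals for counting error. The 4 markers left of the dashed line chose the members, so their separation is built in. To the right of it, Olig1 was seen in 90.0% of non-cycling OPCs, 46.8% of cells with astroglial markers and 15.8% of cells with vascular markers.

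Thinned to equal depth, Sox10, a transcription factor of the whole oligodendrocyte lineage, was detected in 21.5% of non-cycling OPCs, in 2.53% of cells with astroglial markers and in 2.37% of cells with neuronal markers. Cspg4 encodes the NG2 proteoglycan, a surface protein of OPCs and also of pericytes. It was detected in 19.7% of non-cycling OPCs and in 15.3% of cells with vascular markers, against 1.07% of cells with neuronal markers. Without thinning, Cspg4 had a UMI in 45.1% of the OPCs.

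The OPC profile was not free of other transcripts. Of the 1668 cells, 763 (45.7%) held at least 4 UMIs of another class, most often of the astroglial and stem cell list (663 cells), followed by the neuronal (140) and vascular (36) lists. These 763 cells had a median of 4404 UMIs and contained 222 of the 236 called doublets. The 905 others had a median of 2237 UMIs and 14 doublets. All 6 astroglial markers (Aqp4, Aldoc, Slc1a2, Fgfr3, Hopx and Gfap) were detected in the OPC pool, with a sum of 2011 CPM, against 5529 CPM in the cells with astroglial markers. Without doublets and cells with another class's markers, this sum was 595 CPM, against 358 CPM in cells with neuronal markers and 334 CPM in cells with vascular markers. The gates limit each of these groups to fewer than 4 astroglial UMIs per cell, so these levels are capped and set no free background. In the whole pool the 6 neuronal markers summed to 603 CPM, the 6 vascular markers to 386 CPM, the 6 microglial markers to 16.2 CPM and the 6 fibroblast markers to 15.1 CPM, with Dpt at 0. The part of these transcripts in the results below was not tested. Leaving out called doublets and the cells that carry other-class markers moved 233 of 377 reported or listed log2 ratios against other P5 cells beyond their counting interval. Such values are given for some of them.

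Promoters are shown for a marker used by the rule and for the NG2 and Olig2 genes, because the P5 single-cell chromatin accessibility (scATAC-seq) peak list allows their state in the same sort to be read. Of the 16 OPC markers, 10 had a promoter in the RefSeq table (build GRCm38.p6, 250 bases before to 50 after the start), and all 10 overlapped a P5 peak, as did 93.6% of the promoters of all genes compared. The peaks were called over all P5 cells, so they do not show the state in OPCs alone. The Pdgfra promoter (chr5:75152001-75152300, plus strand) lay within the peak chr5:75148117-75158202, and 0.0552% of the 143199 P5 peaks were as long or longer. The Cspg4 promoter (chr9:56864854-56865153, plus strand) lay within chr9:56862842-56870023 (0.227% as long or longer). The Olig2 promoter (chr16:91225300-91225599, plus strand) lay within chr16:91219399-91235221 (0.0140% as long or longer). Capitals mark matches, on either strand, to 5 searched words: the E-box words CAGCTG and CATCTG, the Sox-like words ACAAAG and ACAATG, and TATAAA.
Pdgfra: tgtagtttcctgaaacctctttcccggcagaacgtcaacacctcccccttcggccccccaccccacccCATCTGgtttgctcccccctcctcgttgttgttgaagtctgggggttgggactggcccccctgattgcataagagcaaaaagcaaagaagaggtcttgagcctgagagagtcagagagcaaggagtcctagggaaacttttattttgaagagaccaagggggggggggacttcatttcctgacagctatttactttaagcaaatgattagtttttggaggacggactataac
Cspg4: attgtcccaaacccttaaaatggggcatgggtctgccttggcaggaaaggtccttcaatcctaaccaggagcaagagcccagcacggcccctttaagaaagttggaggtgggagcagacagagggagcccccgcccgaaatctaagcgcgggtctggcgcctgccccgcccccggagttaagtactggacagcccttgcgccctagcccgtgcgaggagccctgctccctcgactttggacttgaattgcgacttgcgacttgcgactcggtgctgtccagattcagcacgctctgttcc
Olig2: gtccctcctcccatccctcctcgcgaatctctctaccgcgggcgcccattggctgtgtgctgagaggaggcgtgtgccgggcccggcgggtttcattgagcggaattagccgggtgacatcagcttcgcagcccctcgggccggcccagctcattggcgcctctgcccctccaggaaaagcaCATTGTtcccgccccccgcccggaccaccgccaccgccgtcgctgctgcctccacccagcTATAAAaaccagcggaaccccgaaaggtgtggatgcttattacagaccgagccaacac
Pdgfra held 1 CATCTG, Cspg4 none of the words, and Olig2 1 TATAAA and 1 ACAATG on the minus strand, which reads CATTGT above. Over all 32851 promoters of the table, CATCTG was found in 17.2%, ACAATG in 12.6% and TATAAA in 13.6%. CAGCTG was found in 20.8% of 888 promoters of genes at least 2-fold higher in OPCs (649 genes), rule genes left out. It was found in 17.6% of 675 promoters of lower genes (550 genes) and in 15.3% of 11949 promoters of all genes compared (9252 genes). Promoters of the same gene were counted separately, and not every gene called had a listed promoter. ACAATG stood at 8.11%, 4.00% and 7.15% in the same 3 sets. A match describes these letters in this window and not a bound factor.

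Against the other P5 cells, non-cycling OPCs had 915 of 12106 genes compared at least 2-fold higher (7.56%) and 740 at least 2-fold lower (6.11%), with a median log2 ratio of 0.04. The comparison cells included the cycling and Gpr17-high cells of the same lineage. With doublets and OPCs holding another class's markers left out, an alternative chosen after seeing the data, 1041 genes were higher and 995 lower. Of these, 740 of the higher and 422 of the lower genes were also called in the full comparison.

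**Figure D2:**
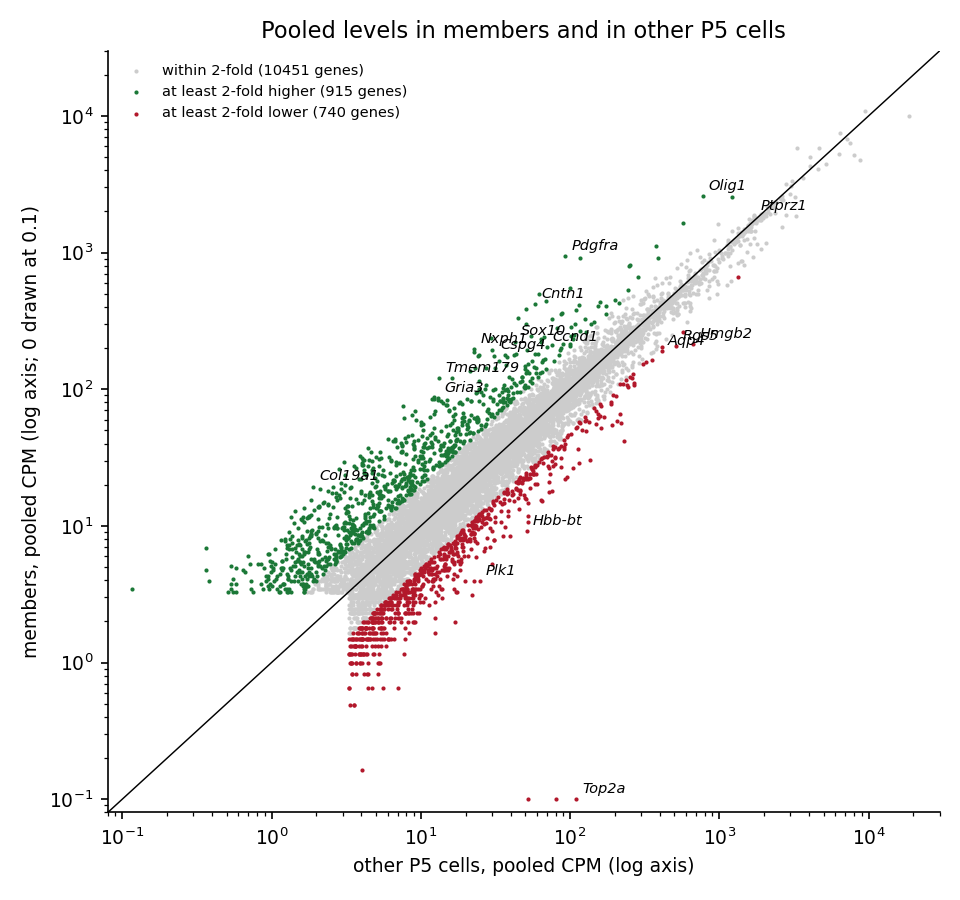
Pooled level of each compared gene in non-cycling OPCs (vertical axis, CPM, log scale) against all other P5 cells (horizontal axis, CPM, log scale), with the line of equal levels. Green points are the 915 genes at least 2-fold higher and red points the 740 at least 2-fold lower, and the genes drawn at 0.1 are the 3 cycle genes that the rule set to 0. Olig1, at 2595 CPM against 773 CPM, lies above the line, and Ptprz1, at 1858 CPM against 1718 CPM, lies on it.

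The largest ratios outside the rule genes are given for genes with at least 100 UMIs at the higher level in the smaller pool. Col19a1, a collagen chain, stood at 19.4 CPM in OPCs and 1.89 CPM in the other cells, 10.2-fold higher (7.84 to 13.3). Fam19a1, a secreted chemokine-like protein, was 9.92-fold higher (8.69 to 11.3). Tac1, the precursor of substance P, was 9.61-fold higher (7.77 to 11.9), at 29.2 CPM. In cells with vascular markers, Col19a1, Fam19a1 and Tac1 were at 0, 2.38 and 1.19 CPM. Nxph1, a secreted ligand of neurexins, was 8.66-fold higher (8.01 to 9.36) at 197 CPM. Gjb1, a connexin of oligodendrocyte gap junctions, was 8.43-fold higher (7.03 to 10.1), and Sstr1, a somatostatin receptor, 8.80-fold (6.77 to 11.4). Vwc2, a secreted BMP antagonist, was 7.98-fold higher (6.94 to 9.15). Of the other genes among the 20 largest ratios, 4 of which belong to rule genes, the sorting receptor Sorcs3, the membrane protein genes Tmem179 and Tmem255b, the cation transporter Slc22a3, Resp18, the protocadherin Pcdh15, the kinase Prkg2, Sprn and the vesicle protein Rph3a lay between 7.60-fold and 9.24-fold. Without doublets and cells with another class's markers, the log2 ratio of Col19a1 went from 3.35 to 3.98, that of Tmem179 from 3.18 to 3.86 and that of Nxph1 from 3.11 to 3.72. Thinned to equal depth, Nxph1 was detected in 21.3% of OPCs and in 1.30% of cells with neuronal markers. Col19a1 was detected in 2.46% of thinned OPCs, and its level in cells with neuronal markers was 1.54 CPM.

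The rule genes themselves stood at 941 CPM (Pdgfra), 907 CPM (C1ql1), 496 CPM (Matn4) and 384 CPM (Lhfpl3), against 50.9 to 116 CPM in the other cells. These levels chose the cells and carry no further information. Of the 12 OPC markers outside the rule, 11 were higher, beside 7.56% over all genes, with a median log2 ratio of 1.79. Pcdh15 was 7.94-fold higher (7.40 to 8.52), Cspg4 5.69-fold (5.27 to 6.13) and Sox10 5.23-fold (4.89 to 5.59). Olig1 and Olig2, the transcription factors that specify the lineage, were 3.36-fold (3.30 to 3.42) and 3.19-fold (3.09 to 3.29) higher. The exception was Ptprz1, a receptor phosphatase proteoglycan, at a ratio of 1.08 (1.06 to 1.10), since cells with astroglial markers held 2495 CPM of it.

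Growth factor receptors other than Pdgfra had 4 of the 20 compared higher and 3 lower, with a median of -0.21, beside 7.56% higher and 6.11% lower over all genes. The neuregulin receptor Erbb4 stood at 29.7 CPM against 4.72 CPM (6.30-fold, 5.20 to 7.61). Erbb3, of the same family, stood at 4.59 CPM against 0.664 CPM (6.95-fold, 4.11 to 11.5, from 28 UMIs). Ntrk3, the neurotrophin-3 receptor, was 2.51-fold higher (2.30 to 2.73), and Kit, the stem cell factor receptor, 2.67-fold (1.93 to 3.58). The lower genes were Pdgfrb (log2 -1.38), a pericyte receptor, Cxcr4 (-1.42), a chemokine receptor, and Lpar1 (-1.31), a lysophosphatidic acid receptor. The FGF receptors Fgfr1, Fgfr2 and Fgfr3 stood at log2 -0.51, -0.85 and -0.89 and did not reach 2-fold. Without doublets and cells with another class's markers, Fgfr3, which is also an astroglial marker, stood at -2.71 and Pdgfrb at -3.81. Fgfr3 was among the markers by which OPCs were left out, so its drop follows in part from the filter.

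Neurotransmitter receptors were a group in which many members were higher. Of 30 glutamate and GABA receptor genes compared, 14 were higher and 2 lower (7.56% and 6.11% over all genes), with a median log2 of 0.71 against 0.04. Among AMPA receptor subunits, Gria3 was at 86.6 CPM against 13.0 CPM (6.66-fold, 5.95 to 7.45) and Gria4 5.54-fold higher (4.76 to 6.42). Gria2, the subunit that makes the channel impermeable to calcium, was at 651 CPM against 369 CPM and did not reach 2-fold. The kainate subunits Grik3, Grik1 and Grik4 stood at log2 2.5, 2.37 and 1.68. Among NMDA receptor subunits, Grin1 (1.72) and Grin3a (1.27) were higher, while Grin2b and Grin2c stood at -0.82 and -0.78. Among GABA receptor subunits, Gabra3 was 6.37-fold higher (4.98 to 8.10), and the metabotropic subunit Gabbr2 was also higher (1.18). Cacng4, an auxiliary subunit of AMPA receptors, was 3.56-fold higher (3.35 to 3.78), while its relative Cacng5 was lower (log2 -1.46, from 18 UMIs). The other lower gene was Grm3, a metabotropic receptor also known from astrocytes, at log2 -1.27 and at -3.36 without doublets and cells with another class's markers. Among cells with Xist only and among cells with Y-linked UMIs only, Gria3 stood at 2.53 and 2.49. Thinned to equal depth, Gria3 was detected in 10.6% of OPCs, 0.907% of cells with astroglial markers and 0.535% of cells with neuronal markers.

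Ion channels showed the largest median of the receptor and channel lists, 0.93, with 10 of 23 higher and none lower (7.56% and 6.11% over all genes). Voltage-gated sodium channels led the list. Scn1a was 6.51-fold higher (4.74 to 8.84), Scn3a 5.32-fold (4.64 to 6.08) and Scn2a1 4.87-fold (4.06 to 5.81). The auxiliary sodium subunit Scn3b was 3.31-fold higher (2.81 to 3.87). Of the potassium channels, Kcnd2 (4.01-fold, 3.63 to 4.42), Kcnd3 (log2 1.35) and Kcna6 (1.08) were higher. Kcnj10, an inward rectifier of mature glia, stood at 98.2 CPM against 118 CPM. Thinned to equal depth, Scn3a was detected in 6.12% of OPCs and 1.99% of cells with neuronal markers.

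Guidance and adhesion genes had 19 of 49 higher and 1 lower (median 0.55), against 7.56% and 6.11% over all genes. Lrrtm3, a postsynaptic leucine-rich repeat protein, was 7.54-fold higher (6.84 to 8.30), and Cntn1, an axonal and glial cell adhesion protein, 7.25-fold (6.89 to 7.63). Sema3d, a secreted semaphorin, was 6.13-fold higher (5.01 to 7.45). The adhesion proteins Dscam (5.62-fold, 5.01 to 6.29) and Opcml (5.47-fold, 5.24 to 5.71) and the netrin receptor Unc5c (log2 2.23) followed. All 3 neuroligins of the list were higher, Nlgn3 at 1.29, Nlgn2 at 1.28 and Nlgn1 at 1.06, and the neurexin Nrxn3 stood at 1.94 and Nrxn2 at 0.62. The lower gene was Unc5b (-1.60, from 13 UMIs). Opcml was detected in 47.0% of thinned OPCs and in 4.51% of cells with neuronal markers.

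Among 25 lineage transcription factors compared, 8 were higher and none lower, beside 7.56% and 6.11% over all genes. These were Sox10, Zfp488 (log2 1.92), Olig1, Myt1 (1.72), Olig2, Nkx2-2 (1.31), Sox6 (1.27) and Sox8 (1.26). Factors shared with neural stem cells stood below or near 0, Sox2 at -0.30, Sox9 at -0.07, Nfia at -0.58, Nfib at -0.63 and Nfix at -0.70. Myrf, the regulator that switches on myelin genes, was counted at 28 UMIs (4.59 CPM) in the 1668 cells.

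Proteoglycan and perineuronal matrix genes had 6 of 20 higher and 1 lower (median 0.63, 7.56% and 6.11% over all genes). Besides Cspg4, these were Tnr, the tenascin of perineuronal nets (4.27-fold, 3.97 to 4.58), the sulfotransferase Chst11 (3.19-fold, 2.83 to 3.58), the syndecan Sdc3 (2.82-fold, 2.67 to 2.98), the xylosyltransferase Xylt1 (log2 1.46) and Cspg5 (2.10-fold, 2.06 to 2.13). Cspg5 stood at 2562 CPM against 1223 CPM. The hyalectan genes were split, Vcan at 0.62 and Bcan at 0.63 but Ncan at -0.70, none past 2-fold. Sdc4 was lower, at -1.17, and at -3.43 without doublets and cells with another class's markers.

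Signalling components of the Notch, BMP and Wnt pathways had 3 of 25 higher and 3 lower (median -0.37), few genes to set against 7.56% and 6.11% over all genes, so nothing is read from the counts. The higher genes were Bmp7 at 96.1 CPM against 23.9 CPM (4.03-fold, 3.65 to 4.43), Dll3 (2.97-fold, 2.68 to 3.29) and Dll1 (2.68-fold, 2.26 to 3.14), both Delta family members. The lower genes were the receptors Notch2 (-1.22) and Notch3 (-1.21) and the BMP target Id1 (-1.25). Hes5, a Notch target, stood at 488 CPM against 635 CPM, and Hes1 at 157 CPM against 168 CPM. Id3 and Id4 were both at -0.96. Without doublets and cells with another class's markers, Notch2, Notch3 and Id1 stood at -2.65, -3.12 and -2.22, and Id3 and Id4 at -1.77 and -2.21. Dll3 was also found in 4.51% of thinned cells with neuronal markers, against 7.55% of OPCs.

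**Figure D3:**
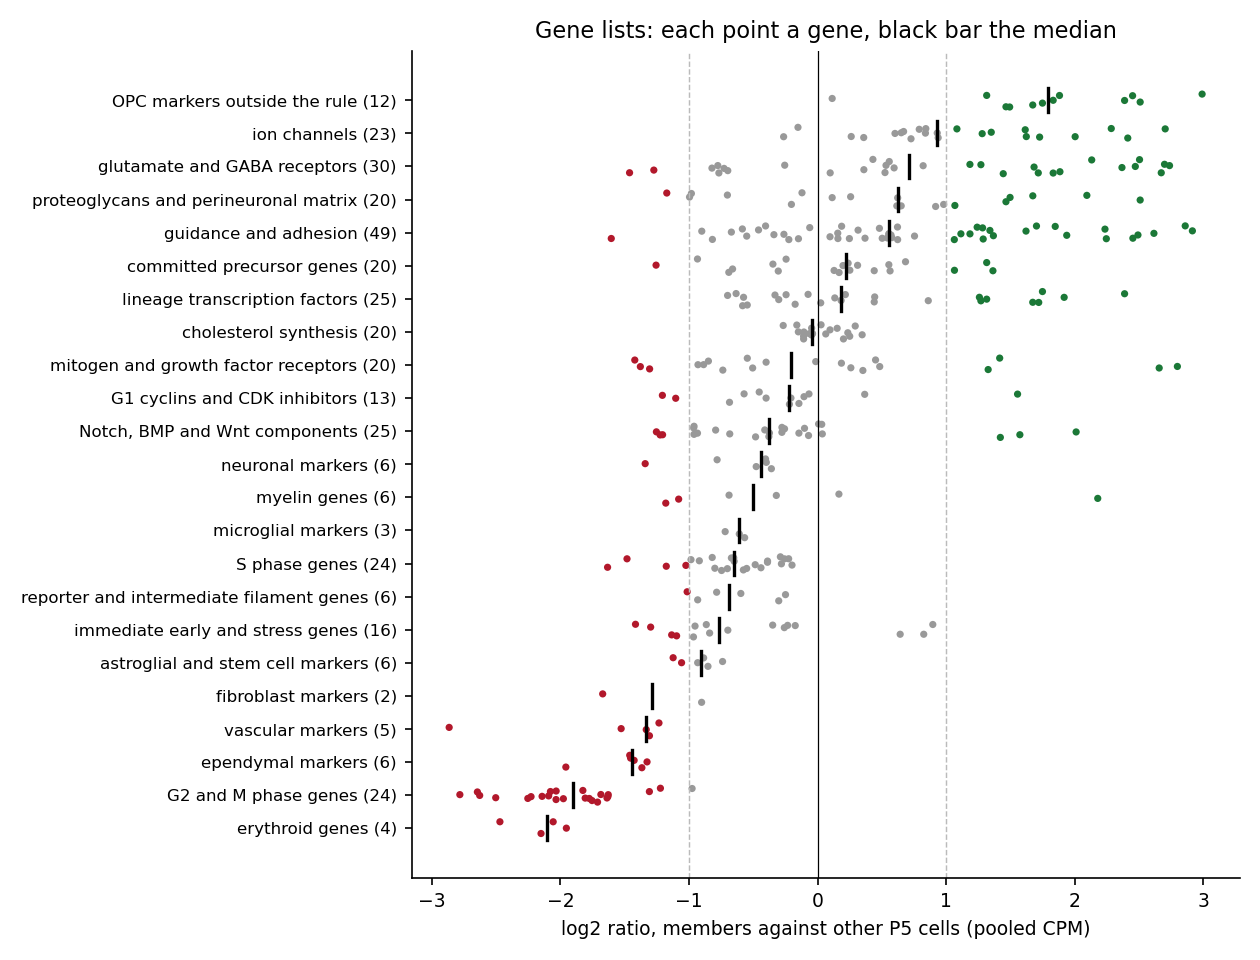
Log2 ratio of pooled CPM in non-cycling OPCs to all other P5 cells (horizontal axis) for each gene of 23 lists, with the number of genes compared in brackets. Green points are at least 2-fold higher, red points at least 2-fold lower, and black bars are list medians. Ion channels (median 0.93) and glutamate and GABA receptors (0.71) lie to the right of the median of all genes (0.04), and erythroid (-2.10) and G2 and M phase genes (-1.90) to the left.

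Cell cycle genes were low, and the rule had removed cells with Mki67, Top2a or Cdk1. Of 24 further G2 and M phase genes 23 were lower (6.11% over all genes), with a median of -1.90. This median was -1.12 with each cell thinned to 1000 UMIs and -1.26 with the mean over cells of each cell's CPM. The list was led by Hmmr (log2 -2.78), Anln (-2.65) and Plk1 (-2.63). Outside the list, Esco2 (-3.05), Psrc1 (-2.5) and the histone gene Hist1h2ap (-2.46) led. S phase genes were less far apart, with 4 of 24 lower (median -0.65, 6.11% lower over all genes), Cdc45 at -1.63 and Rrm2 at -1.48. The lower levels follow in part from the rule and are given as a description. Some cycle transcripts remained, as 155 OPCs (9.29%) had at least 5 UMIs over the G2 and M phase list, against 85.8% of cycling OPCs, and 165 (9.89%) had at least 5 over the S phase list. In contrast to these genes, Ccnd1, the cyclin D gene that responds to mitogens, was 2.94-fold higher (2.75 to 3.13), at 204 CPM against 69.6 CPM. Ccnd2 stood at -0.57 and Ccnd3 at 0.37. The CDK inhibitor genes Cdkn1a (-1.21) and Cdkn2c (-1.10) were lower.

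Myelin and committed precursor genes did not move together, with list medians of -0.50 and 0.22. Of 12 myelin genes 6 reached the count needed, 1 of them higher and 2 lower (7.56% and 6.11% over all genes). The higher one was Ugt8a, which makes the galactolipids of myelin (4.53-fold, 3.87 to 5.27), and Mag was among the lower ones (-1.18, from 11 UMIs). The comparison cells include Gpr17-high cells, and Mag turned to 1.03 once cells with at least 2 marker or 3 Gpr17 UMIs were taken out of the comparison. Of 20 committed precursor genes 3 were higher and 1 lower, near the shares over all genes (7.56% and 6.11%). These were Lims2 (1.36), Nkx2-2 (1.31) and Itpr2 (1.06), and the lower Enpp6 (-1.26, from 18 UMIs, 11 of them in 1 cell). Enpp6 turned to 2.14 in the same reduced comparison.

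Genes of cholesterol synthesis differed little. None of the 20 compared passed 2-fold in either direction, and their median was -0.04 with Srebf2 highest at 0.35. Of 16 immediate early and stress genes 4 were lower (6.11% over all genes), Hspa1a (-1.42), Junb (-1.30), Fosb (-1.13) and Dusp1 (-1.10), and none was higher, with Nr4a1 at 0.90 and Egr1 at 0.64. Nes, the gene whose elements drive the reporter, was at 24.9 CPM against 37.8 CPM (ratio 0.661, 0.556 to 0.777), and Vim was lower (-1.01). Fabp7, a fatty acid-binding protein of neural progenitors, was abundant in both, at 6335 and 7533 CPM.

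No astroglial, neuronal, vascular, ependymal, fibroblast or microglial marker was higher. Of those compared, 5 of 5 vascular, 6 of 6 ependymal, 2 of 6 astroglial, 1 of 6 neuronal, 1 of 2 fibroblast and 0 of 3 microglial markers were lower, beside 6.11% over all genes. The comparison pool held the cells gated on these lists, so these calls are in part built in. Vascular markers summed to 386 CPM in OPCs, against 93.7 and 66.3 CPM in cells with astroglial and neuronal markers. Ependymal markers summed to 89.2 CPM in OPCs, against 69.6, 30.9 and 185 CPM in cells with astroglial, neuronal and vascular markers. Cells with vascular and ependymal markers held 13616 and 6741 CPM of their own lists. The gates cap the other lists in each class. Aqp4, the astroglial water channel, was at log2 -1.12 and at -3.68 without doublets and cells with another class's markers. Without those cells the list medians of vascular, fibroblast and microglial markers went from -1.33 to -3.07, from -1.29 to -4.06 and from -0.61 to -3.03. The marker filter used these lists and the astroglial list with Aqp4, and was applied to the OPCs only. These drops therefore follow in part from the filter. All 4 globin genes compared were lower (median -2.10), Hbb-bt with -2.47. The Hbb-bt value was -0.88 among cells with Xist and no Y-linked UMI, and -2.33 among cells with Y-linked UMIs and no Xist. The low ratios do not hold against every class. The erythroid list summed to 119 CPM in OPCs and 290 CPM in cells with astroglial markers. It summed to 89.3, 91.7 and 84.5 CPM in cells with neuronal, vascular and ependymal markers, and to 63.8 and 54.4 CPM in cycling OPCs and Gpr17-high cells. The source of the globin counts was not tested.

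The 332 cycling OPCs met the same marker conditions but had at least 2 UMIs of the cycle genes. They were deeper, with a median of 5681.5 UMIs, and 20.2% were called doublets. Non-cycling OPCs had 103 of 9742 genes at least 2-fold higher (1.06%) and 474 at least 2-fold lower (4.87%). Markers of other classes also differed between the groups, vascular markers summing to 386 CPM in non-cycling and 696 CPM in cycling OPCs, fibroblast markers to 15.1 and 86.1 CPM, and astroglial markers to 2011 and 1497 CPM. All 4 fibroblast markers compared were lower in non-cycling OPCs (median -2.66), and their part in the result was not tested. Most lineage genes differed by less than 2-fold, and of the 12 OPC markers outside the rule only Neu4 was higher (log2 1.07). Within the fixed lists, none of the receptor, channel, guidance, transcription factor or proteoglycan genes compared was at least 2-fold higher, and of these lists only Lpar1, among the growth factor receptors, was lower (-1.20, from 31 UMIs). Olig1 was at 2595 CPM against 1900 CPM, Sox10 at 223 CPM against 172 CPM, and Ccnd1 at 204 CPM against 169 CPM (1.21-fold, 1.07 to 1.37). The rule gene C1ql1 was 2.09-fold higher (1.95 to 2.25), while Pdgfra was 1.34-fold higher (1.26 to 1.42). Both genes were used by the rule, whose fixed minimum asks for a higher level in the shallower non-cycling cells, so nothing is read from them.

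The largest ratios over cycling OPCs are given by the same minimum of UMIs. Tmem179 stood at 120.1 CPM against 50.8 CPM (2.36-fold, 1.93 to 2.93). Dusp15, a phosphatase of the oligodendrocyte lineage, was 2.28-fold higher (1.75 to 3.07). Creld1 was 2.27-fold (1.73 to 3.09), the proton-gated channel Asic1 2.25-fold (1.68 to 3.12) and Resp18 2.05-fold (1.76 to 2.42) higher. Calb2, which is also a neuronal marker, was at 153 CPM against 76.4 CPM, and at 945 CPM in cells with neuronal markers. Calb2 and Chadl, a proteoglycan of the lineage (99.4 CPM against 50.8 CPM), stood just under 2-fold. Mbp, the myelin basic protein gene, had the largest ratio, 3.53 (2.72 to 4.72), but 275 of its 618 UMIs came from 1 cell. Without that cell the ratio was 1.96 (1.5 to 2.65). Leaving out doublets and cells with another class's markers from both groups brought the count of higher genes to 43, of which 12 were among the 103, and thinning every cell to 1000 UMIs brought it to 37, with 4 shared. Both alternatives were chosen after seeing the data, and both lower the UMIs behind each gene.

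Cycle genes were prominent among the lower genes, as the rule prescribes. All 24 G2 and M phase genes were at least 2-fold lower (median -3.72) and 18 of 24 S phase genes (median -1.52), beside 4.87% over all genes. Hmmr stood at 3.12 CPM against 95.7 CPM (log2 -4.91), Cenpe at -4.51, Cdca2 at -4.42, Plk1 at -4.28, Kif23 at -4.19 and Aspm at -4.18. Among regulators of G1, Cdkn2c (-2.29) and Cdkn2d (-1.79) were lower, both inhibitors of cyclin D kinases, and so was Rbl1 (-1.96), a retinoblastoma relative. Setd8, the H4K20 methyltransferase that the study is about, was named here after its values were seen. It stood at 41.2 CPM in non-cycling OPCs and at 102 CPM in cycling OPCs (ratio 0.403, 0.335 to 0.487). In the other P5 cells Setd8 was at 56.3 CPM, and the OPC level was 0.733 of that (0.641 to 0.832). The rule took cells with cycle gene UMIs out of the OPCs only. They stayed among the other P5 cells, and their part in this ratio was not tested.

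Gpr17-high cells, 108 cells with at least 5 Gpr17 UMIs and no cycle gene UMI, stand for the committed stage of the lineage, and 49 of them met the other marker conditions. Their median of 6633 UMIs was more than that of non-cycling OPCs, and a minimum of 5 UMIs favours deep cells. Non-cycling OPCs had 351 of 5937 genes at least 2-fold higher (5.91%) and 276 at least 2-fold lower (4.65%). The astroglial, neuronal and vascular markers summed to 1414, 359 and 189.8 CPM in Gpr17-high cells, each below the OPC value, and their part in the result was not tested. Pdgfra was at 941 CPM against 232 CPM, 4.05-fold higher (3.48 to 4.77), but the rule asked for it in 1 group only. Outside the rule and with at least 100 UMIs at the higher level in the smaller pool, the metalloproteinase Mmp15 (3.56-fold, 2.57 to 5.24), the cysteine dioxygenase Cdo1 (3.47-fold, 2.81 to 4.39) and Igfbp2 (3.41-fold, 2.75 to 4.33) led. Hes1 (3.36-fold, 2.41 to 4.97), Ccnd1 (3.22-fold, 2.42 to 4.48), Cspg5 (3.04-fold, 2.80 to 3.30), Xylt1 (3.04-fold, 2.30 to 4.16), Tacc2 and Cfap20 followed. Of 12 ion channels compared 7 were higher (median 1.14), with Scn3b at 2.82 and Kcnd2 at 1.79. Etv4, an ETS factor downstream of growth factor signalling, was at 121 CPM against 19.5 CPM (5.98-fold, 3.67 to 11.4), and Bmp7 was 4.75-fold higher (2.91 to 9.05).

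Commitment genes ran the other way. Of 16 committed precursor genes compared 15 were lower in non-cycling OPCs (median -2.97), and all 6 myelin genes were (median -4.86), beside 4.65% over all genes. Enpp6, a choline phosphodiesterase of newly forming oligodendrocytes, stood at 2.95 CPM against 221 CPM (log2 -6.19). Bmp4, a secreted growth factor, was at 7.71 CPM against 546 CPM (-6.13). Bcas1, a marker of early myelinating cells, was at 73.3 CPM against 1246 CPM (-4.09), and Fyn, the kinase that relays myelination signals, at 198 CPM against 1669 CPM (-3.07). The lowest ratio belonged to 9530059O14Rik, a gene of unknown role (-6.86), and Cldn11 (-5.01), Mbp (-4.71), Chn2 (-3.95), Pak4 (-3.48) and Cnp (-3.40) were also among the 10 lowest. The lineage factors were divided, with Myrf (-4.27), Tcf7l2 (-2.52), Nkx2-2 (-1.72) and Zeb2 (-1.61) lower, Etv4, Sox9 (1.34) and Nfib (1.06) higher, and Olig2 (0.18) and Sox10 (-0.66) within 2-fold. Of 18 proteoglycan and matrix genes 4 were higher and 2 lower, beside 5.91% and 4.65% over all genes. The lower ones were Tnr, at 179 CPM against 649 CPM (ratio 0.276, 0.247 to 0.308), and Csgalnact1 (-1.82). Thinned to 1000 UMIs per cell, 42 genes were higher and 71 lower, with few UMIs per gene left in the 108 cells. With doublets left out of both groups, and cells with another class's markers left out of the OPCs only, 445 genes were higher and 277 lower. Of these, 257 and 225 were shared with the full comparison.

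Within the non-cycling OPCs, cells with 0, 1 and 2 Gpr17 UMIs are set side by side as a description, since the rule used Gpr17 and all cells come from 1 library. Their median depths were 2861, 3016 and 3475.5 UMIs. The committed precursor list summed to 1107 CPM (1069 to 1145), 1328 CPM (1278 to 1379) and 1257 CPM (1192 to 1324) in these cells, and to 8861 CPM in Gpr17-high cells. Neu4, a sialidase, was at 15.8 CPM (11.6 to 21.0), 26 CPM (19.4 to 34.1) and 35.5 CPM (25.4 to 48.4), and at 223 CPM in Gpr17-high cells. Itpr2, a calcium release channel, was at 90.5, 107 and 130 CPM in the OPCs with 0, 1 and 2 UMIs, with intervals of 80.0 to 102 for the first and 110 to 153 for the last. Bcas1 was at 65.6 CPM (56.7 to 75.5) and 84.4 CPM (68.3 to 103) in the first and the last. Cspg5 was at 2454, 2604 and 2773 CPM, and at 843 CPM in Gpr17-high cells. Pdgfra (914, 980 and 944 CPM) was required in the OPCs and not in the Gpr17-high cells, so its level of 232 CPM there follows in part from the rule. Mbp was at 71.3, 178 and 44.4 CPM, an order set by the single cell with 275 UMIs.

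**Figure D4:**
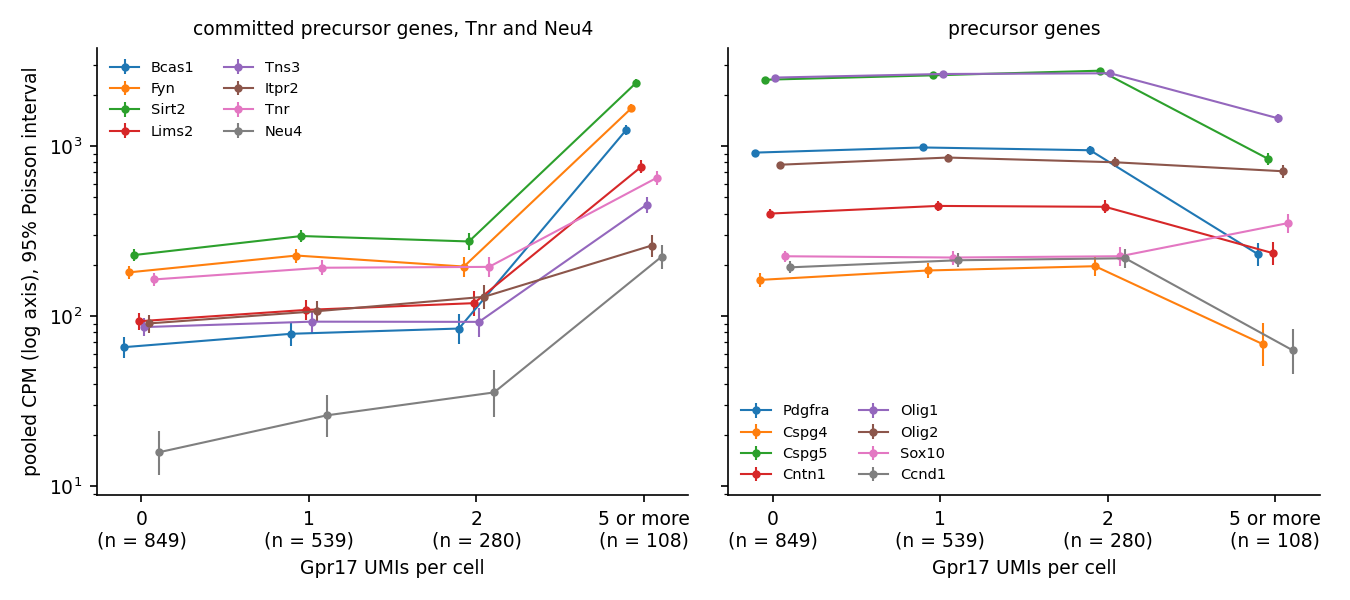
Pooled CPM (vertical axes, log scale) of committed precursor genes with Tnr and Neu4 (left) and of precursor genes (right) in non-cycling OPCs with 0, 1 or 2 Gpr17 UMIs and in Gpr17-high cells (5 or more), with exact Poisson 95% intervals and the number of cells under each group. Bcas1 goes from 65.6 to 84.4 CPM over the OPC groups and to 1246 CPM in Gpr17-high cells, while Cspg5 is at 2454 to 2773 CPM and then at 843 CPM. Pdgfra was required of the OPC groups only, so its step is set in part by the rule.

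Variation between the cells was read from the ratio of variance to mean over cells thinned to 1000 UMIs, where counting alone gives a value of about 1. The median over 3420 genes was 1.02 and the 95th percentile 1.19. Malat1, a nuclear non-coding RNA, varied most (24.2), and its value was 25.7 without doublets and cells with another class's markers. Cst3 (14.6) and Apoe (8.30), both abundant secreted proteins of astrocytes, fell to 3.46 and 1.88 without those cells. Their mean was 13.3 and 6.41 thinned UMIs in OPCs with another class's markers and 4.82 and 2.29 in those without. The vascular genes Higd1b (4.55), Rgs5 (4.16) and Igfbp7 (2.37), the neuropeptide gene Tac2 (2.57) and the glutamate transporter Slc1a2 (2.35) all came to 0.927 to 0.979 in the reduced set. Higd1b, Rgs5 and Slc1a2 are among the markers by which cells were left out, so their drop follows from the filter.

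The other variable genes changed less or more without those cells. Actb, which encodes beta-actin, was at 2.64 before and 2.65 after, and Rpl13, a ribosomal protein gene, at 2.65 and 2.61. Tmsb4x, an actin-binding peptide, went from 2.67 to 2.27, Igfbpl1 from 2.95 to 2.07 and Fabp7 from 2.58 to 1.80. Dbi, an acyl-CoA-binding protein, went from 2.70 to 1.2. Mbp, at 6.78 and 3.09, rested on few cells, the top 5 of which held 61.3% of its UMIs.

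**Figure D5:**
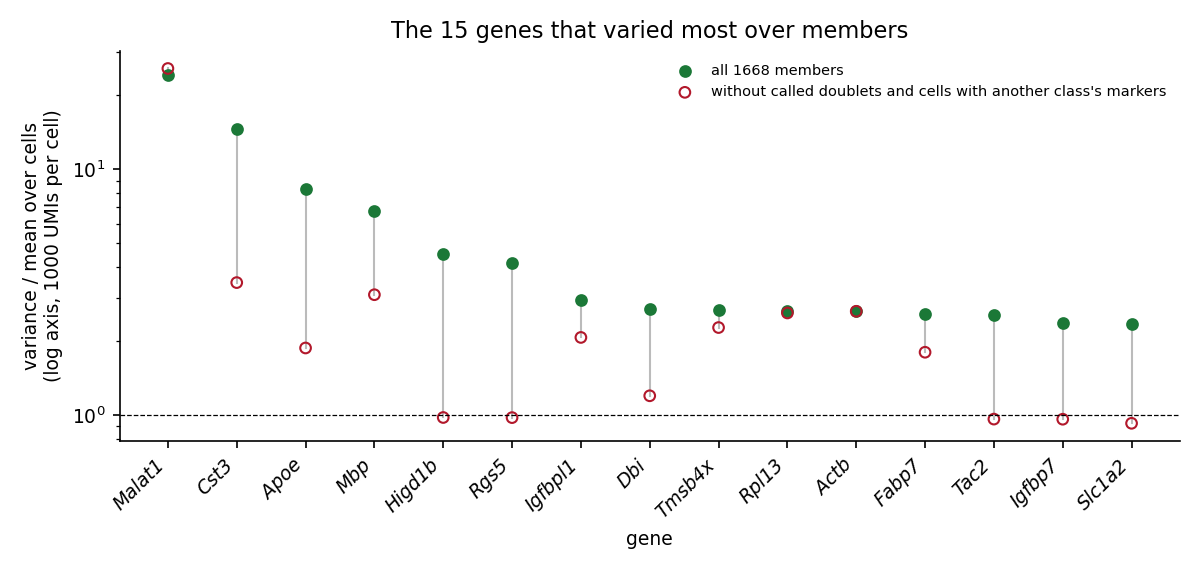
Variance divided by mean over non-cycling OPCs thinned to 1000 UMIs (vertical axis, log scale) for the 15 genes with the highest values, in all 1668 cells (filled) and without called doublets and cells with another class's markers (open). The dashed line marks 1. Malat1 stays at 24.2 and 25.7, whereas Cst3 goes from 14.6 to 3.46. The drops of Higd1b, Rgs5 and Slc1a2 follow from the filter, which used these markers.

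Cells of different depth also differed in these transcripts. In 3 bins of 556 cells from the shallowest to the deepest (medians of 1789, 2994 and 5620 UMIs), Slc1a2 was at 426, 519 and 1282 CPM and the summed astroglial list at 1067, 1279 and 2659 CPM. Opcml went the opposite way, at 1027, 691 and 332 CPM, and Cntn1 at 661, 536 and 293 CPM. Pdgfra fell from 1671 to 614 CPM over these bins, but a fixed minimum of UMIs asks for a higher level in a shallow cell. Ccnd1 had no such order, at 186, 237 and 194 CPM. The committed precursor list was at 1252, 1261 (1208 to 1315) and 1166 CPM (1130 to 1203), slightly lower in the deepest cells.

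The same rule found few cells at the later ages. It held for 25 of 5351 cells at 12w (0.467%, 0.303 to 0.689) and 8 of 2797 at 24w (0.286%, 0.124 to 0.563). These are shares of a sort, in which the EGFP gate decides which OPCs are seen, and the adult libraries also list shallow barcodes and were filtered from 1000 UMIs. All 25 cells at 12w had Xist and none had Y-linked UMIs, whereas at 24w none had Xist and 4 had Y-linked UMIs, so age, sex and library cannot be told apart. The pools held 69524 and 25579 UMIs, in which 3 UMIs correspond to 43.2 and 117 CPM.

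Some of the adult cells carried fibroblast RNA. UMIs of the 6 fibroblast markers were found in 2 of the 25 cells at 12w, in 3 of the 8 at 24w and in 37 of the 1668 OPCs at P5, and the markers summed to 618 CPM, 1407 CPM and 15.1 CPM. Both 12w cells that passed on Pdgfra alone were among them, as was the 1 such cell at 24w. At 24w, 2 cells had none of Olig1, Olig2, Sox10 and Cspg4, and both carried fibroblast UMIs. Of the cells without fibroblast UMIs, 22 of 23 at 12w and 5 of 5 at 24w had at least 2 of these 4 genes. In the P5 cells outside the OPC group, exactly 2 were found in 36.0%, exactly 3 in 10.2% and all 4 in 3.26%. Having 2 of them is therefore not specific to the lineage. Values without the cells that held a fibroblast UMI, an alternative chosen after seeing the data, are therefore given as well. This filter was applied to the adult cells only, and the P5 values keep all 1668 OPCs.

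Several lineage genes stood above their P5 level in the 25 cells of 12w. Olig1 was at 4718 CPM at 12w and 3206 CPM at 24w, against 2595 CPM at P5, and at 5184 and 5623 CPM without fibroblast-bearing cells. The P5 level also depends on which OPCs are kept. At P5, Olig1 had a mean of 3.51 thinned UMIs in OPCs without another class's markers and 2.34 in those with them. Ccnd1 at P5 was at 247 CPM without doublets and cells with another class's markers. Sox10 was at 475 CPM, 235 CPM and 223 CPM at 12w, 24w and P5, with a ratio at 12w of 2.16 (1.46 to 3.00), and at 522 and 356 CPM in the adult cells without fibroblast UMIs. Ccnd1 was at 561 CPM, 352 CPM and 204 CPM, and its ratio at 12w was 2.78 (1.94 to 3.77), or 3.05 (2.13 to 4.15) without those cells. Neu4 was at 475 CPM (33 UMIs) and 195 CPM (5 UMIs) against 22.8 CPM at P5. Its ratio at 12w was 21.1 (13.8 to 30.6), and 23.1 (15.2 to 33.6) without fibroblast-bearing cells.

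Fabp7 and Fabp5 were lower in the adult cells, while Ptprz1 stood below its P5 level by less than 2-fold. Fabp7 stood at 1726 CPM at 12w and 977 CPM at 24w against 6335 CPM at P5, and at 1897 and 1637 CPM without fibroblast-bearing cells. Fabp5 stood at 173 CPM and 156 CPM against 1536 CPM, with 12 and 4 UMIs, and at 189.7 and 285 CPM without fibroblast-bearing cells. Ptprz1 was at 1208 CPM and 1095 CPM against 1858 CPM, but at 24w it stood at 1708 CPM without fibroblast-bearing cells, a ratio of 0.938 (0.589 to 1.37). Vascular RNA was also present, Vtn at 1769 CPM at 12w (1296 CPM without fibroblast-bearing cells) against 6963 CPM in the other 12w cells and 65.4 CPM in P5 OPCs, and its part in the differences was not tested.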

How the data were processed

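The deposited P5, 12w and 24w scRNA-seq files hold raw UMI counts of each gene in each barcode. The authors made them with Cell Ranger 2.2.0 on mm10, and Seurat 4.1.0 is also named in the submitters' notes. Barcodes were kept with 1000 UMIs and 500 genes or more and a mitochondrial share of up to 10%. Depth per library is given with the results. The cells, lists and named genes were chosen with earlier results of these data known.

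OPCs were selected by the UMI rule given above. Other P5 cells, outside the OPC marker conditions and the Gpr17-high group, were gated by at least 4 summed UMIs of exactly 1 class list. Counts were pooled per group, and log2 ratios had 0.5 UMIs added. Genes at least 2-fold apart with 20 UMIs at the higher level in the smaller pool were called, without a test. The code was tested on simulated data. Named genes were the rule genes, genes of the lists, the 20 highest and 10 lowest ratios against other cells, the 10 highest and lowest against the other 2 OPC groups (at least 100 UMIs), and the 15 most variable genes. Doublets were called with scrublet in scanpy 1.11.5 and kept in the main results. Scripts ran on Python 3.11.15 (pandas 2.3.3, scipy 1.17.1, numpy 2.4.6). Intervals are exact Poisson, binomial (Clopper-Pearson) or conditional binomial intervals. The deposited P5 scATAC-seq peak list was used for positions only, with no count, and promoters came from RefSeq. The bulk libraries of cultured cells and the adult scATAC-seq files were not analysed here. A few genes that the rule named are not reported here.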

Additional observations from a re-analysis of the deposited data

How the results depend on the processing

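No paired analysis was possible because each age is 1 library and no result comes from a test. Genes higher than in other P5 cells (915) were 1717 at a fold of 1.5, 456 at a fold of 3, 3310 with no minimum and 567 among cells with Xist and no Y-linked UMI. Under the remaining alternatives they numbered 625 to 1091. Lower genes (740) were 1540 at 1.5-fold, 186 at 3-fold, 457 with a minimum of 50 UMIs, 1776 with no minimum, 339 among Xist cells, 335 among cells with Y-linked UMIs and 382 in OPCs with Gpr17 of 0. Under the remaining alternatives they numbered 527 to 1009. With each cell thinned to 1000 UMIs, 527 genes were lower, and 288 of these were among the 740. Thinning left 717 genes higher, and 593 of these were among the 915. Against cycling OPCs, leaving out doublets and cells with another class's markers gave 43 higher and 286 lower genes, and thinning to 1000 UMIs 37 and 173. Against Gpr17-high cells, thinning gave 42 and 71. Against cycling OPCs and Gpr17-high cells, these 2 alternatives were chosen after seeing the data. The smaller groups and thinned cells hold fewer UMIs, and the cause of the changed counts was not tested.

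The share of OPCs (12.2%) was 14.9% with a marker sum of at least 2, 8.18% with at least 8, 6.20% with Gpr17 of 0, 14.8% with up to 1 cycle UMI, 10.4% with at most 5% mitochondrial UMIs, 11.4% without doublets and 5.65% after thinning. Changes to the rule and thinning move the share by construction, and the cause of the mitochondrial and doublet moves was not tested. Single genes and list medians were followed under the alternatives only in the contrast with other P5 cells, not against cycling OPCs or Gpr17-high cells. Of the named genes, 9530059O14Rik (1.83), Enpp6 (2.14) and Mag (1.03) turned to a positive log2 ratio once lineage cells were taken out of the comparison group. No other alternative turned the sign of a reported gene called at 2-fold in that contrast. Over all alternatives, 219 of 253 list medians moved by less than 0.5, and 1449 of 4524 log2 ratios of single genes moved beyond their counting interval. The median of myelin genes went from -0.50 to 1.28 with lineage cells taken out of the comparison group. That of astroglial markers went from -0.91 to -2.82 without doublets and cells with another class's markers. That of erythroid genes went from -2.10 to -0.53 among Xist cells, and that of microglial markers from -0.61 to 0.70 among cells with Y-linked UMIs. OPCs were left out by the astroglial list itself, so the drop of its median follows in part from the filter. The share and levels describe an EGFP sort of 1 pooled library, with no measure of differences between mice.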
